A study of Brassica rapa with 38 samples.

Results

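A stretch of chromosome A06 of Brassica rapa, from base 30174853 to base 30514055, held 126 gene models whose lengths and order recurred in forward and in reverse. The 126 were every gene model that lay wholly inside this stretch of 339 kb, out of 46479 gene models on 10 chromosomes. The stretch was chosen by its TPM in the libraries described here, which differed between ploidy levels along it, so the levels below only describe the block. Counts of members called by a fit per gene model are given further on as description, not as a test of the block. RNA-seq of young leaves gave 8 libraries, 3 from monoploid, 2 from diploid and 3 from autotetraploid plants, sampled 60 days after sowing from young leaves near the centre of the plant. The monoploid came from microspore culture of the inbred line '85-1', the diploid was made by treating the monoploid with colchicine, an agent that multiplies chromosome sets, and the autotetraploid by treating the diploid again. All groups therefore carried the same genome at different copy number, and all had passed through tissue culture before growing in a greenhouse. Monoploid plants served as the reference of the study. Aligned bases ranged between 5.86 and 8.06 Gb per library.

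Repeated blocks of genes arise in plant chromosomes by duplication in the same or in the opposite direction, and an inverted copy carries its genes in reverse order on the other strand. Plant nuclear chromosomes also hold inserted stretches of plastid and mitochondrial DNA, which gene prediction can annotate as nuclear genes. Reads from near-identical copies cannot be assigned to one of them with certainty, so the level of a single copy is less sure than the sum over its copies. No name is paired with the gene IDs of this block in the annotation used here. Several spans, among them 246, 1062, 1440, 2205 and 2253 bases, are also lengths of coding sequences of plant plastid genes, as background. No plastid annotation was used here, so whether transcripts of the plastid were counted in these members, and with that the origin of the block, was not tested, and the levels below are those assigned to the A06 gene models.

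The gene models of the block were short and mostly of coding-like length. Their median span, counted from the first to the last base, was 542 bases, against 1475 bases for the gene models outside. A span that was a multiple of 3, as an uninterrupted reading frame has, was found in 110 of 126 members (87.3%), in 61 of the 100 flanking gene models and in 47.3% of all gene models outside. The strands were evenly used, with 64 members on the plus and 62 on the minus strand. The block also stood by itself at its left end, where 314044 bases separated it from the nearest gene model, whereas the next gene model on the right began after 611 bases.

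Equal spans paired members on opposite strands more than on the same strand. Within a strand no more than 2 members shared a span, and 78 of 102 classes of span and strand held a single member. Over both strands the members fell into 58 classes, of which 10 had 4 members, 4 had 3, 30 had 2 and 14 had 1. Put in order along the chromosome, equal spans formed 8 runs of at least 5 matched pairs, 5 in inverted and 3 in direct order, and 111 of the 126 members belonged to at least 1 run.

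The longest run joined 30 pairs in inverted order. Its left arm covered A06 30176887 to 30245336 (68.5 kb) and its right arm 30269142 to 30337613 (68.5 kb), with 23.8 kb between them. A second inverted run of 19 pairs had arms of 81.1 kb each, 30317277 to 30398374 and 30416895 to 30497992, separated by 18.5 kb. The arms of the second run had the same length to the base. A stretch of 14.5 kb at the outer ends of the arms was present 4 times, at 30176887, 30323109, 30477655 and 30499548, and held the members of the 4-member classes of 189, 303, 363, 678 and 2253 bases.

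**Figure D1:**
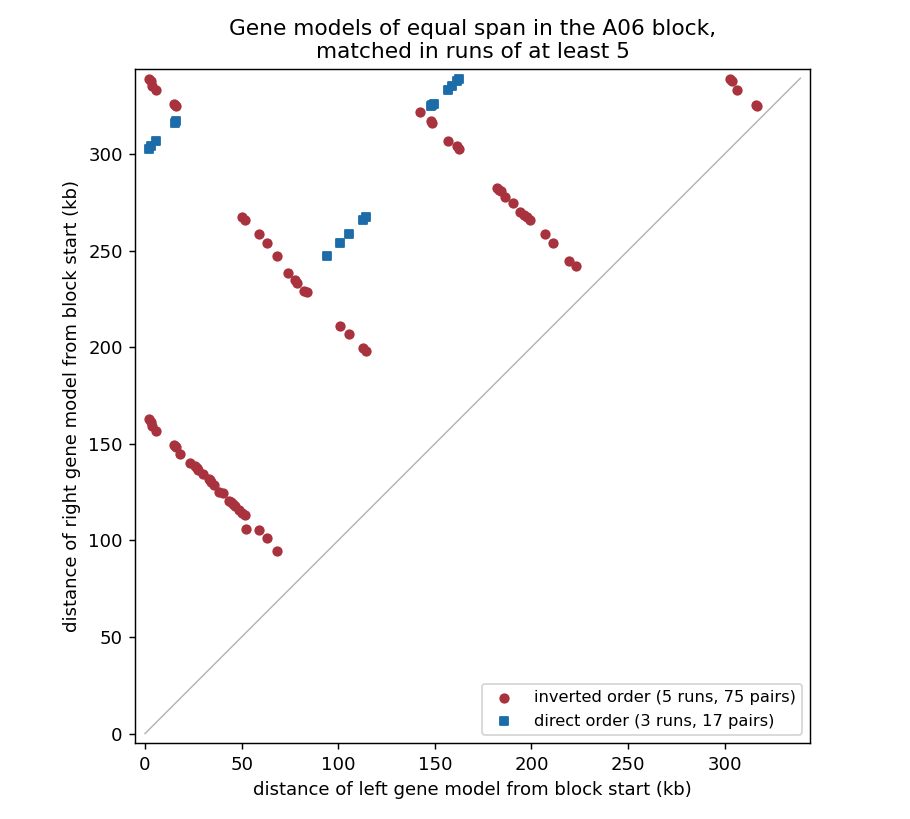
Each point is a pair of gene models of equal span, plotted by the distance in kb of the left member (x axis) and of the right member (y axis) from the block start. Points running down to the right are runs in inverted order and points running up are runs in direct order, and the longest run comprises 30 pairs.

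Members of the block were among the most abundant leaf transcripts. TPM is a measure of relative abundance, corrected for gene length and scaled to one total in every library, and does not give transcript number per cell. The median of the members' mean TPM over the 8 libraries was 92.3, against 0.309 in the 50 gene models on either side and 1.53 in all gene models outside the block. Of all gene models, 4 of the 10 with the highest mean TPM, 8 of the top 20 and 19 of the top 100 were members. A TPM of 1 or more in all 8 libraries was reached by 115 members, and no member was listed at 0 in all 8. Levels within the block were still very unequal, with mean TPM between 0.856 and 9850, and the 10 most abundant members made up 54.7 to 66.0% of the summed TPM, depending on the library.

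**Figure D2:**
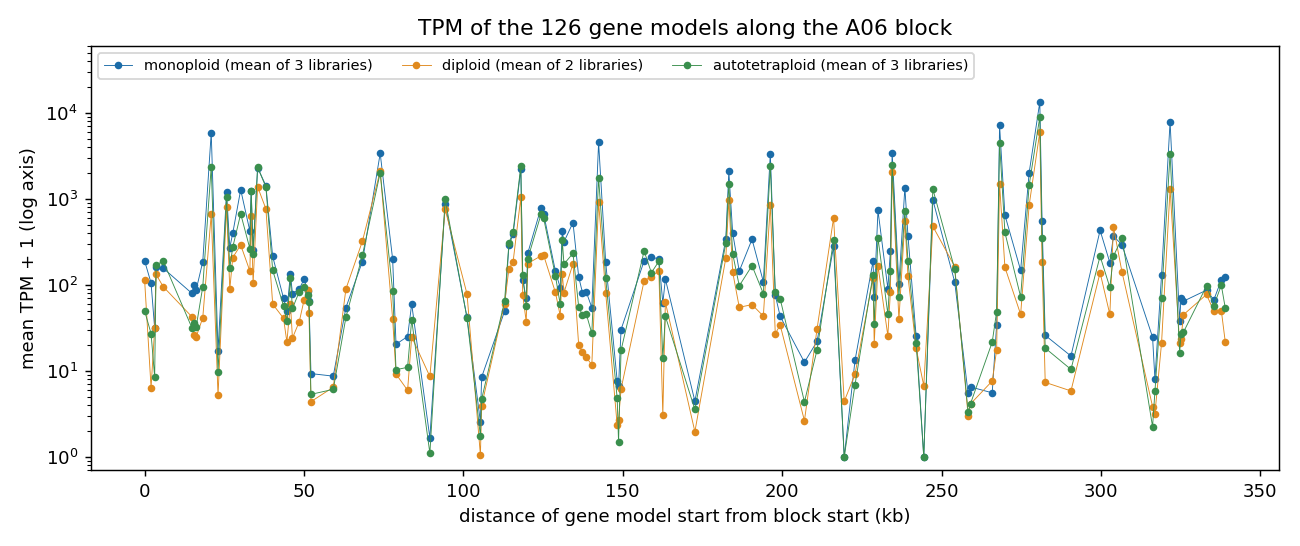
Mean TPM + 1 (log axis) of the 126 gene models against their distance from the block start in kb, with a line for each ploidy level. High and low gene models alternate along the whole block, and the profiles of the 3 levels follow each other.

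The share of the transcript pool taken by the block differed between the ploidy levels. Summed over the 126 members, TPM was 80117, 69642 and 97544 in the monoploid libraries, 44813 and 18486 in the diploid libraries, and 50798, 49525 and 63552 in the autotetraploid libraries. All 5 diploid and autotetraploid sums lay below all 3 monoploid sums, and the diploid libraries were both below the autotetraploid ones. As a share of the library, this was 8.24% ± 1.41 in monoploid (SD, n = 3), 3.16% ± 1.86 in diploid (SD, n = 2) and 5.46% ± 0.776 in autotetraploid leaves (SD, n = 3). The sum in autotetraploid leaves was 0.663 times and that in diploid leaves 0.384 times the monoploid sum.

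Diploid replicate 2 stood apart. Its sum was the lowest of all libraries, and that of diploid replicate 1 was 2.42 times as large. With diploid replicate 1 alone, the diploid sum was 0.544 times that of the monoploid, and with diploid replicate 2 alone 0.224 times. The autotetraploid sum was 1.73 times the diploid sum, 1.22 times that of diploid replicate 1 and 2.95 times that of diploid replicate 2. Diploid values lower than autotetraploid ones therefore rested in size on diploid replicate 2, while both diploid libraries lay below the monoploid range. Whether fewer cells of a type or less RNA per cell lies behind a lower value cannot be told apart in whole leaves.

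**Figure D3:**
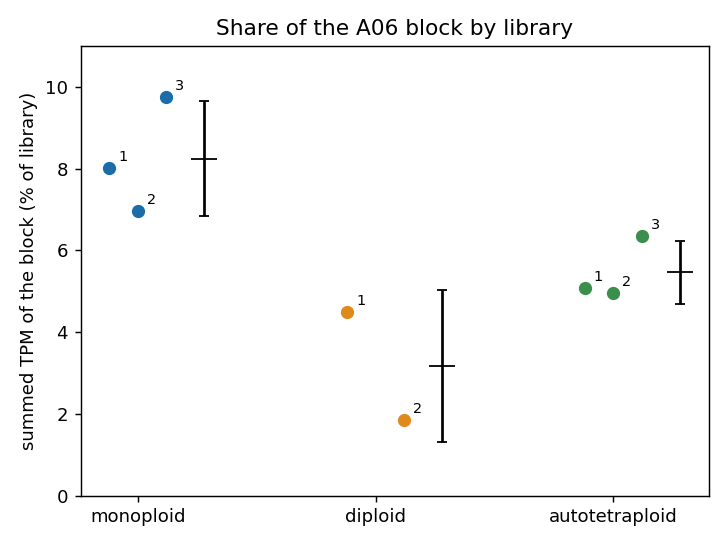
Summed TPM of the block as a percentage of the library, with 1 point per library numbered by replicate and the mean ± SD beside it (n = 3 monoploid, 2 diploid, 3 autotetraploid). Monoploid libraries lie between 6.96 and 9.75%, diploid libraries at 4.48 and 1.85%, and autotetraploid libraries between 4.95 and 6.36%.

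The flanks of the block shared only the low diploid sums, which rested partly on 1 gene model. The rest of A06 did not show the order of the block. The 100 flanking gene models had a summed TPM of 4595 ± 443 in autotetraploid and 4464 ± 387 in monoploid leaves (SD, n = 3 each), a ratio of 1.03. In diploid leaves the flanks summed to 3935 ± 124 (SD, n = 2), 0.882 times the monoploid value. Both diploid sums, 4023 and 3847, lay below every monoploid and autotetraploid sum. The flanks include BRA06G0039845, next to the right end and described below. It averaged 406 TPM in monoploid, 66.1 in diploid and 158 in autotetraploid leaves. Its TPM was 322 in monoploid replicate 1, where the flanks summed to 4050, and 111 and 20.8 in the diploid libraries. That both diploid flank sums lay below monoploid replicate 1 therefore rested on this gene model. The other 4539 gene models of A06 summed to 1.01 times the monoploid value in autotetraploid and to 1.07 times in diploid leaves.

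The most abundant member, BRA06G0039864, had a span of 246 bases (A06 30455681 to 30455926, minus strand) and ranked 2nd among all gene models. Its TPM was 12167, 12518 and 15277 in monoploid, 8047 and 3935 in diploid, and 8610, 7667 and 10579 in autotetraploid libraries. No diploid or autotetraploid library reached the monoploid range, and the mean was 0.672 times the monoploid mean in autotetraploid and 0.450 times in diploid leaves. A further member with the same span, BRA06G0039880, followed at a lower level with 3493, 2723 and 4160 TPM in monoploid, 2607 and 1453 in diploid, and 2385, 2359 and 2692 in autotetraploid libraries. Its autotetraploid libraries were again all below the monoploid ones, by a smaller margin.

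A pair of members with a span of 1440 bases changed more. BRA06G0039853 had 7792, 6600 and 9369 TPM in monoploid, 1850 and 744 in diploid, and 2927, 2340 and 4821 in autotetraploid libraries. BRA06G0039910, the member of equal span in the facing arm, had 4296, 3534 and 5741, then 900.3 and 940.0, then 1907, 1587 and 1783 TPM in the same order of libraries. In neither did a diploid or autotetraploid library overlap the monoploid ones, and the autotetraploid means were 0.425 and 0.389 times the monoploid means. For BRA06G0039910 the diploid libraries were nearly equal, so this member did not share the gap between diploid replicates seen in the sum.

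BRA06G0039962, with a span of 1461 bases, had the widest gap between diploid libraries among the 10 most abundant members. It reached 5661, 5105 and 6837 TPM in monoploid, 1297 and 26.4 in diploid, and 1828, 1627 and 3657 in autotetraploid libraries. Its autotetraploid mean was 0.404 times and its diploid mean 0.113 times the monoploid mean, and every monoploid library was above all others. The members BRA06G0039868 and BRA06G0039893, both of 1062 bases, had autotetraploid means of 0.629 and 0.716 times the monoploid means. The autotetraploid and monoploid libraries of BRA06G0039893 overlapped, at 975, 2532 and 3692 TPM in autotetraploid and 3817, 2188 and 4047 TPM in monoploid leaves.

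Other abundant members were as high in autotetraploid as in monoploid leaves. BRA06G0039953, of 435 bases, had 2269, 2341 and 2400 TPM in autotetraploid and 2265, 2074 and 2581 TPM in monoploid libraries, a ratio of means of 1.01. BRA06G0039925, of 369 bases, had 2175, 2285 and 2743 TPM in autotetraploid and 2280, 2012 and 2388 TPM in monoploid libraries, a ratio of 1.08. The groups overlapped for both. Both had a wide gap between the diploid libraries, with 2199 and 1874 TPM in replicate 1 and 556 and 205 TPM in replicate 2. The remaining member of the 10, BRA06G0039938 with 159 bases, had 1988, 2199 and 1874 TPM in autotetraploid and 2929, 2667 and 4547 TPM in monoploid libraries, without overlap.

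**Figure D4:**
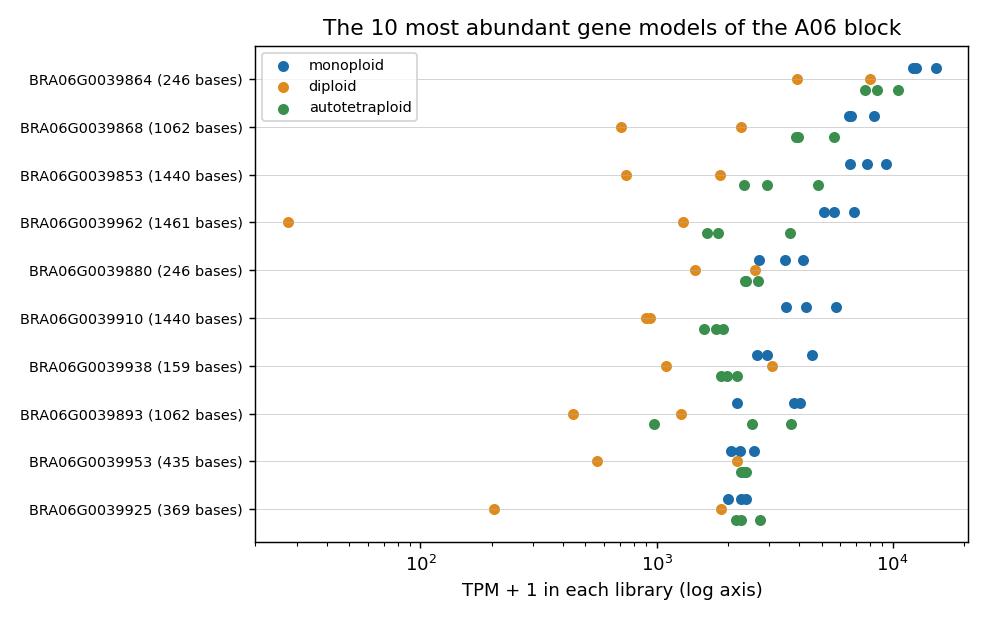
TPM + 1 (log axis) of the 10 most abundant members in each of the 8 libraries, 1 row per member with its span, coloured by ploidy level. Monoploid points lie right of the autotetraploid points for BRA06G0039853, BRA06G0039910 and BRA06G0039962, and the groups mix for BRA06G0039953 and BRA06G0039925.

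Over all members the lower values were widespread but not uniform. The linear model of limma was fitted to log2(TPM + 1) of the 25652 gene models that reached a TPM of 1 in 2 or more libraries, 124 members among them. A gene model was called where the p adjusted by Benjamini-Hochberg was 0.05 or less and the log2 fold change was 1 or more in either direction. The remaining 2 members, BRA06G0039887 and BRA06G0039875, were not tested. In autotetraploid against monoploid leaves 21 members were called lower and 0 higher, where 6.01% of all gene models tested were called lower, 5.56% higher and 11.6% in either direction. In diploid against monoploid leaves 63 members were called lower and 1 higher, where 5.36% of all gene models were called lower, 4.87% higher and 10.2% in either direction. In autotetraploid against diploid leaves limma called 0 members, where 0.0273% of all gene models were called, 0.0195% higher and 0.0078% lower. In that comparison 71 members were higher and 2 lower at a limma p under 0.05 before adjustment, a threshold that 5.41% of all gene models passed. At the same threshold 47 members passed in autotetraploid against monoploid leaves and 91 in diploid against monoploid leaves, where 49.0% and 46.8% of all gene models did. These counts come from the values in which the block was noticed and say no more than where its members lie.

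The counts depended on single libraries. Without monoploid replicate 3, 8 members (6.45%) were called in autotetraploid against monoploid leaves, below the 11.1% of all gene models. Without autotetraploid replicate 3 there were 13 (10.5%), of which 1 was higher, again below the 12.8% of all gene models. Without diploid replicate 1, 28 members were called in autotetraploid against diploid leaves, all higher, where 0.265% of all gene models were called. Without diploid replicate 2 there was 1, which was lower, where 0.0702% of all were called. When one diploid library is left out, the lone one is assumed to vary like the other groups.

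The middle of the distribution moved as the sum did. The median log2 difference of the 124 members was -0.58 in autotetraploid against monoploid leaves, and 105 of them lay below 0, while the median of all gene models tested was 0.19. In diploid against monoploid leaves it was -1.28, with 117 below 0 and a median of all gene models of 0.25. In autotetraploid against diploid leaves it was 0.79, with 108 above 0 and a median of -0.05 for all. The median over all gene models was thus shifted upward in both comparisons with the monoploid, and the members' differences are larger when read against it.

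Counts of members whose libraries did not overlap gave the same order. All autotetraploid libraries lay below all monoploid libraries in 63 of 126 members (15.6% of all gene models tested) and above them in 1 (35.4% of all). Both diploid libraries lay below all monoploid libraries in 85 members (16.3% of all) and above them in 2 (45.8% of all). All autotetraploid libraries lay above both diploid libraries in 68 members (6.98% of all) and below them in 4 (16.5% of all). Taken singly, diploid replicate 1 lay below the autotetraploid range in 84 members (20.4% of all) and above it in 17 (28.3% of all), and diploid replicate 2 lay below it in 96 (14.7% of all) and above it in 14 (32.6% of all).

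Members of equal span had very different levels. The 14 classes with at least 3 members held 52 members, and the member with the highest mean TPM exceeded the lowest by 2.77 to 85.1 times, with a median of 6.45. The coefficient of variation between the copies of a class had a median of 86.6% (44.9 to 139%). It was larger than the coefficient of variation of the class sum between libraries in all 14 classes, both for the monoploid (median 19.2%) and for the autotetraploid (median 18.5%). For the diploid, whose libraries had a median of 53.4%, it was larger in 8 of the 14 classes and smaller in 6. Equal span alone does not make 2 gene models copies, and the class of 246 bases, which had the widest range, holds gene models from different places in the repeat.

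The class sums ranged around the sum of the block. In autotetraploid leaves they were 0.316 to 1.34 times the monoploid sum, with a median of 0.772, and 9 of the 14 were lower, 5 of them without overlap. In diploid leaves they were 0.155 to 1.61 times the monoploid sum, with a median of 0.520, and 13 of the 14 were lower, 6 without overlap. The classes of 189, 363, 477 and 678 bases, which all lie in the stretch of 14.5 kb that is present 4 times, were at 0.396, 0.402, 0.433 and 0.316 times the monoploid sum in autotetraploid leaves. The classes of 2205 and 2253 bases in the same stretch were at 0.833 and 1.22 times, the second at 1.01 times without monoploid replicate 2. Gene models of one stretch therefore had different ratios, and no single ratio described it.

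The class of 678 bases had the lowest ratio of autotetraploid over monoploid, and its 4 members were all called lower in autotetraploid leaves. It was taken for a closer description after its values were seen. The highest, BRA06G0039965, had 42.0, 34.9 and 28.1 TPM in autotetraploid and 92.2, 81.9 and 122 TPM in monoploid libraries. BRA06G0039851, at the right end of the block, had 31.4, 20.9 and 25.2 TPM in autotetraploid and 68.7, 51.7 and 88.8 TPM in monoploid libraries. The groups were separate in both, and the autotetraploid means were 0.355 and 0.370 times the monoploid means. The inner members were low, BRA06G0039856 with 1.24, 1.44 and 1.06 TPM in autotetraploid and 10.3, 57.5 and 3.41 TPM in monoploid libraries. The lowest, BRA06G0039907, had 0.851, 0.153 and 0.467 TPM in autotetraploid and 3.13, 11.6 and 2.14 TPM in monoploid libraries. For both of these monoploid replicate 2 was far above the other monoploid libraries.

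Other classes did not follow the sum. The class of 468 bases summed to 198, 249 and 221 TPM in monoploid, 338 and 379 in diploid, and 267, 257 and 226 in autotetraploid libraries. It was the one class with a diploid mean above the monoploid, and both diploid libraries were above all others. Without diploid replicate 2 the classes of 303 and 2155 bases were above the monoploid too, at 1.52 and 1.37 times. The class of 282 bases was above it without diploid replicate 1, at 1.36 times, but at 0.47 times without diploid replicate 2. The class of 282 bases had sums of 355, 173 and 113 TPM in autotetraploid and 152, 135 and 190.5 TPM in monoploid libraries. Its ratio of 1.34 rested on autotetraploid replicate 1, without which it was 0.90.

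Matched pairs of the longest run showed the same inequality between facing arms. The 30 matched members of the left arm summed to 10769 ± 1495 TPM in monoploid, 5582 ± 3066 in diploid and 9074 ± 732 in autotetraploid leaves (SD, n = 3, 2 and 3). Those of the right arm summed to 8453 ± 1474, 4035 ± 3028 and 7669 ± 338 TPM. The arms hold 32 and 31 gene models, and unmatched ones were left out of these sums. The matched members of the arms were thus close in mean sum, left over right being 1.27, 1.38 and 1.18 at the 3 levels. In diploid replicate 2 alone they were further apart, at 3414 TPM on the left and 1893 TPM on the right. Within single pairs the mean difference was larger than 2-fold in 20 of 30, with a median of 1.58 on the log2(TPM + 1) scale. The same arm was higher in all 8 libraries in 20 pairs, the left arm in 11 and the right arm in 9.

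The direction differed from pair to pair along the arms. Of the pair of 369 bases, the right member BRA06G0039925 had a mean of 2227 TPM and the left member BRA06G0039947 of 78.3 TPM in monoploid leaves, a difference of 33.7-fold over the 8 libraries. Of the pair of 435 bases, the left member BRA06G0039953 had 2306 TPM and the right member BRA06G0039919 had 144 TPM in monoploid leaves, 16.3-fold over the 8 libraries. A pair of 2205 bases, BRA06G0039968 and BRA06G0039904, had 162 and 208 TPM in monoploid but 169 and 138 TPM in autotetraploid leaves. Its direction differed between libraries and averaged out, at 1.00-fold over the 8 libraries. These pairs and those of the next paragraph were chosen after their values were seen.

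**Figure D5:**
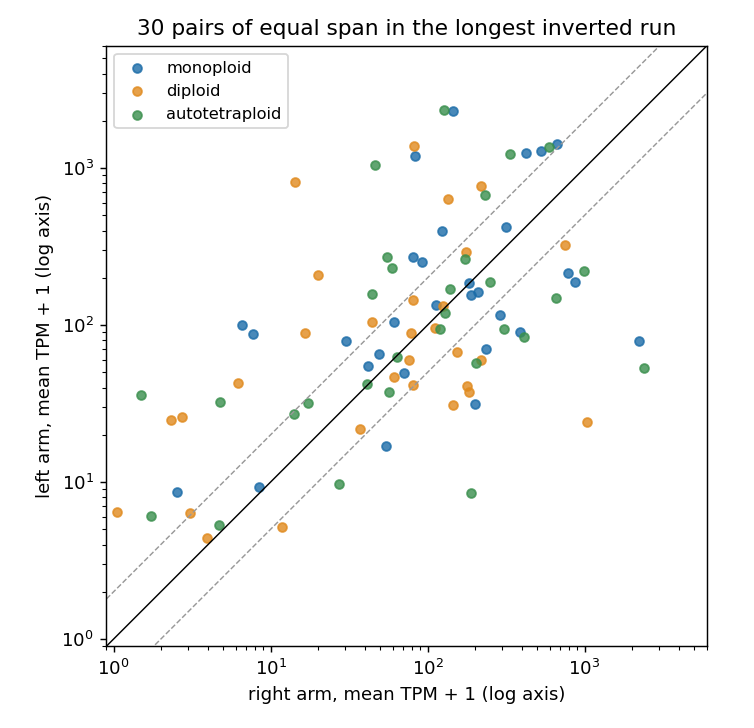
Mean TPM + 1 of the left arm (y axis) against the right arm (x axis) for the 30 pairs of the longest inverted run, both on log axes, coloured by ploidy level. The solid line marks equal levels and the dashed lines 2-fold differences, and points lie on both sides of the lines at every level.

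In the second run the matched members of the arms were unequal in sum. Those of the left arm had 0.363 times the TPM of those of the right arm in monoploid, 0.331 times in diploid and 0.357 times in autotetraploid leaves. These sums cover the 19 matched members of each arm, out of 25 gene models on the left and 24 on the right. The right arm holds BRA06G0039864, at 13320.5 TPM on average in monoploid leaves, whereas its counterpart BRA06G0039897 in the left arm had 398 TPM, a difference of 37.5-fold over the 8 libraries. The neighbouring pair of 1524 bases, BRA06G0039865 on the right and BRA06G0039896 on the left, had 2008 and 143 TPM in monoploid leaves, 14.5-fold over the 8 libraries. The ratio within these 2 pairs was nearly constant, with a SD of 0.18 and 0.12 on the log2 scale over the 8 libraries. Over all 19 pairs the median SD was 0.62, or 0.43 without diploid replicate 2.

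Although the levels of facing members differed, their differences between ploidy levels had mostly the same sign, as did those of the members in general. Of the 124 members tested, 117 lay below 0 in diploid and 105 in autotetraploid against monoploid leaves. Any 2 members would therefore often share a sign. In the longest run both members of 29 of 30 pairs were lower in diploid than in monoploid leaves on average, and both members of 21 of 30 pairs were lower in autotetraploid than in monoploid leaves. Across the 30 pairs the log2 differences of the left and the right member correlated with r = 0.69 in diploid against monoploid and r = 0.67 in autotetraploid against monoploid leaves. In the second run r was 0.72 and 0.78 across 19 pairs. Pairs are not independent replicates, they may share reads, and both members come from the same libraries.

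Cut at the members of 2253 bases, which occurred 4 times, the block fell into 4 units preceded by 4 gene models. The first unit had 62 members over 144 kb, the second 48 over 148 kb, the third 8 over 19.8 kb and the fourth 4 over 6.06 kb. The first and second unit summed to 32426 ± 5818 and 40594 ± 6736 TPM in monoploid, 12917 ± 8065 and 16708 ± 9413 TPM in diploid, and 22322 ± 2048 and 27888 ± 4368 TPM in autotetraploid leaves. Their ratios were alike, at 0.688 and 0.687 for autotetraploid over monoploid and 0.398 and 0.412 for diploid over monoploid. The third unit, which contains BRA06G0039853, was lower, at 0.452 and 0.181. In monoploid leaves BRA06G0039853 alone averaged 7920 TPM of the 8540 TPM of this unit, so its ratios are mostly those of 1 gene model. The fourth unit was at 0.784 and 0.503, and the 4 gene models before the first unit were at 0.518 and 0.577.

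Some members went against the sum in diploid replicate 1 and were chosen after their values were seen. BRA06G0039887 and BRA06G0039875, a facing pair of 1657 bases in the second run, had 6.85 and 11.4 TPM in diploid replicate 1 and were listed at 0 in the other 7 libraries. BRA06G0039888, of 2154 bases, had 1065 and 131 TPM in the diploid libraries, against 295, 191 and 350.0 TPM in the monoploid libraries. BRA06G0039939, of 2155 bases, had 620 and 21.1 TPM in the diploid, against 212, 146 and 199 TPM in the monoploid libraries. The diploid libraries lay on either side of the monoploid ones in both. The one member called higher in diploid leaves, BRA06G0039933 of 1767 bases, had 11.4 and 3.81 TPM in diploid and 0.650, 1.24 and 0.107 TPM in monoploid libraries, with both diploid libraries above all others.

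At the left end the members and their neighbours differed in the direction between autotetraploid and monoploid means. The first member, BRA06G0039971 of 1423 bases, had 27.9, 21.8 and 97.6 TPM in autotetraploid and 141, 269 and 160.2 TPM in monoploid libraries, and the second, BRA06G0039970 of 189 bases, had 40.5, 8.78 and 29.1 TPM in autotetraploid and 219, 36.7 and 56.4 TPM in monoploid libraries. In the diploid libraries the first member had 228 and 0 TPM and the second 8.89 and 1.87 TPM, so the first was high in one diploid library and listed at 0 in the other. Outside, BRA06G0039972 averaged 41.4 ± 6.18 TPM in autotetraploid and 29.1 ± 3.60 TPM in monoploid leaves (SD, n = 3 each). BRA06G0039973 averaged 402 ± 112 TPM in autotetraploid and 293 ± 69.0 TPM in monoploid leaves. Both gene models outside, across the gap of 314044 bases or more, were thus higher in autotetraploid leaves on average, opposite to these members. The autotetraploid and monoploid libraries overlapped for BRA06G0039973 and BRA06G0039970, and did not for BRA06G0039972 and BRA06G0039971.

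At the right end the pattern went on past the border. The last members, BRA06G0039847 of 303 bases and BRA06G0039846 of 189 bases, averaged 98.2 ± 105 and 52.9 ± 5.05 TPM in autotetraploid and 113 ± 29.8 and 122 ± 15.9 TPM in monoploid leaves (SD, n = 3 each). The next gene model, BRA06G0039845 of 1422 bases at A06 30514667 to 30516088, is no member and had 126, 148 and 199 TPM in autotetraploid and 322, 457 and 438 TPM in monoploid libraries. Its libraries did not overlap, its diploid values of 111 and 20.8 TPM were lower still, and its span differs by 1 base from that of the first member. The gene model after it, BRA06G0039844, was below 3 TPM in every library.

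Most members followed the block as a whole across libraries. On log2(TPM + 1), the correlation of a member with the summed TPM of the other members over the 8 libraries had a median of 0.82, was above 0.9 in 42 members and below 0 in 11. Without diploid replicate 2 the median was 0.76. The 8 libraries share their ploidy contrast and the low diploid replicate 2, so these values describe a common pattern only.

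Among 18281 gene models outside the block whose mean TPM was 5 or more, the most similar to its sum was BRA06G0039988 (r = 0.99 over 8 libraries, 0.97 without diploid replicate 2). It lies at A06 25372313 to 25372618, has a span of 306 bases that 3 members share, and had 585, 641 and 723 TPM in autotetraploid and 932, 820 and 1087 TPM in monoploid libraries. Next came BRA01G0016478 (r = 0.98), BRA01G0014989 (r = 0.98), BRA06G0039845 (r = 0.97) and BRA07G004479 (r = 0.96). Without diploid replicate 2 their r fell to 0.94, 0.93, 0.91 and 0.85 in the same order. BRA01G0014989, on A01, has the span of 1062 bases of BRA06G0039868 and BRA06G0039893, and its autotetraploid libraries, at 1330, 1187 and 1632 TPM, lay below its monoploid libraries, at 2010, 3059 and 5850 TPM. Whether reads of such gene models outside and of members were shared was not tested.

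Equal span outside the block was in general no sign of a high level. The 420 gene models elsewhere with the span of 1 of the 14 classes had a median of the mean TPM of 0.0385, against 58.4 for the 52 members of these classes.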

How the data were processed

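RNA-seq tables of 8 leaf libraries were used. The authors trimmed reads with fastp 0.21.0, aligned them with HISAT2 2.2.1 and quantified them with StringTie 1.3.5 (versions per the submitters' processing notes). The methods keep reads above a minimum mapping quality, which would remove most reads that align equally well to several places, but do not say whether this step preceded these tables. The genome assembly and the annotation are not given in the sources used here. The deposited TPM values have one common sum in all libraries. The deposited values of FPKM are scaled to length and depth, and the deposited coverage is the mean read depth over a gene model, not scaled for depth. Coverage over FPKM gave the aligned bases per library. The authors' count test with DESeq2 cannot be repeated on TPM. The monoploid replicate 1 table holds 3 further columns, which were not used.

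Members, gene lists and classes were chosen with earlier results of these data known. Gene models reaching a TPM of 1 in 2 or more libraries were fitted on log2(TPM + 1), pseudocount 1, with limma 3.58.1 in R 4.3.3 (lmFit, eBayes with trend, Benjamini-Hochberg), all 3 ploidy levels in 1 fit. The script was tested on simulated data. The libraries are biological replicates per the series design, and how many plants entered each is not given in the sources used here. As classes within a strand held at most 2 members, classes and unit borders over both strands, the runs of equal span (at least 5 pairs in the same or opposite order, with up to 3 gene models skipped), the scaling to TPM outside the block, sums without the 10 most abundant members and likeness without diploid replicate 2 were chosen after seeing the data. Gene models named are the highest and lowest copy of classes, the 10 most abundant members, 2 on each side of both ends and the 5 most alike, plus those said to be chosen after their values were seen; the classes described in detail were picked likewise. Alternatives were a pseudocount of 0.1, no filter, a minimum mean TPM of 5, median-ratio and quantile scaling, FPKM and coverage, a replicate block, eBayes without trend, a threshold of 0.01 on the adjusted p, only the compared groups and each library left out. Of the block's IDs, 0 matched the RefSeq gene table, so names and sequences were not used here. Tables were read with pandas 2.3.3 and drawn with matplotlib 3.10.9.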

Additional observations from a re-analysis of the deposited data

How the results depend on the processing

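The direction of the summed TPM was the same under every alternative run, on the log2 scale. Its size moved with scaling and with the most abundant members. Autotetraploid over monoploid was -0.59 as deposited, -0.24 with quantile and -0.82 with median-ratio scaling, and -0.39 without the 10 most abundant members. Leaving out 1 library gave -0.72 to -0.46 for autotetraploid over monoploid, -2.16 to -0.88 for diploid over monoploid and 0.29 to 1.56 for autotetraploid over diploid, with the extremes of the last pair set by the diploid library left out. Members called numbered 8 to 28, 50 to 76 and 0 to 28 in autotetraploid against monoploid, diploid against monoploid and autotetraploid against diploid leaves when 1 library was left out, where 10.7 to 12.8%, 6.18 to 11.3% and 0.0234 to 0.265% of all gene models were called. Without a filter on low values 5 members (3.97%) were called in autotetraploid against monoploid leaves, below the 5.33% of all gene models, and 37 (29.4%) in diploid against monoploid leaves, above the 3.94% of all. With the stricter adjusted p of 0.01 the first count was 7 (5.65%), below the 10.1% of all. The causes were not tested. With the replicate number as a block, 20, 57 and 0 members were called in the same order. Deviations of same-numbered monoploid and autotetraploid libraries correlated at 0.082 to 0.217, and each of these libraries correlated best with its own number in the other group. The diploid libraries did not follow their numbers, with -0.042 and -0.084 against the monoploid and 0.031 and -0.224 against the autotetraploid libraries of the same number. The labels give no shared plant or day. Cutting units within a strand gave 2 units and runs gave 8, against 4. TPM holds no counts, so counting error for low members is unknown, and copies may share reads.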

Other observations

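The block was large enough to move the scale of all other genes. When TPM was rescaled to one total over the gene models outside the block, the median log2 difference over the 25652 gene models tested was 0.16, against 0.19 as deposited, in autotetraploid against monoploid leaves. In diploid against monoploid leaves it was 0.18, against 0.25 as deposited. In autotetraploid against diploid leaves it was -0.02, against -0.05 as deposited.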
